A study of Mus musculus with 80 samples.

Results

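The comparison concerns calf muscle of female mice after 48 h without weight on the hind legs. The 8 libraries that the labels give as female and 48 h were set against the 8 given as female and 0 h, for all 11068 genes of the 39-library table. These 16 libraries are part of 80 in the whole study, in which males and females were sampled after 24, 48, 72 or 168 h of unloading or not at all. Every mouse was C57BL6/J, an inbred laboratory strain, with no transgene or deletion named, and the labels give no age. The 48 h mice underwent hindlimb unloading and the 0 h mice are labelled as controls. The tissue was whole gastrocnemius, frozen in liquid nitrogen, from which total RNA was sequenced. The labels do not say outright that each library is a separate mouse, so p-values measure the spread between these libraries.

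In hindlimb unloading the hind legs of a mouse are suspended, and its calf muscles, relieved of body weight, begin to waste. The gastrocnemius holds mostly fast fibres, which contract quickly and burn glucose, and fewer slow fibres, which resist fatigue and rely on mitochondria. In wasting muscle the transcription factors of the FoxO family switch on ubiquitin ligases, which tag proteins of the contractile apparatus for the proteasome, and genes of autophagy, which delivers larger cargo to the lysosome. Insulin-like growth factor, acting through Akt and mTORC1, favours protein synthesis and holds FoxO out of the nucleus, whereas myostatin and glucocorticoids act in the opposite direction.

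Estimated depth was 26.3 to 48.0 M reads (M, megareads; median 39.4 M) at 48 h and 25.7 to 50.5 M (median 33.8 M) at 0 h. All 10 muscle fibre markers were in the table, and together they held 1586340 to 2318280 units of signal at 48 h and 1984440 to 2858500 at 0 h. The first principal component of the 16 libraries carried 46.3% of the variance and separated the groups, at 6.56 to 60.03 for 48 h and -57.7 to -13.1 for 0 h. A pair of libraries stood apart from their groups: replicate 5 at 48 h and replicate 7 at 0 h had median Spearman correlations of 0.934 and 0.916 with the other libraries of their group, against group medians of 0.980 and 0.977. These 2 libraries also held the least Xist, the RNA that silences an X chromosome in female cells, with 656 and 284 units where the group medians were 3358 and 2747. Their mitochondrially encoded share was 9.38% and 7.35% of the signal, against group medians of 14.0% and 14.4%. In replicate 7 at 48 h that share was 9.21%, and its own median correlation was 0.951. Without these 2 libraries the count of called members in each direction moved by at most 2 in all gene and marker lists but the interferon list, and moves of over 1.5 times were in that list and in counts of 1 or 2 members.

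**Figure D1:**
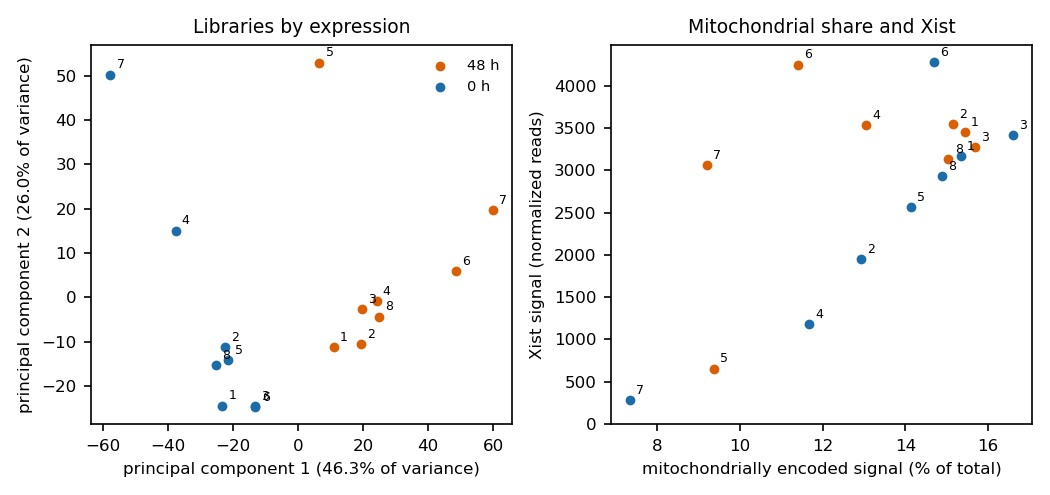
Each point is 1 library, numbered by replicate, with the 8 libraries at 48 h in orange and the 8 at 0 h in blue; the left panel plots the first 2 principal components of log2 signal and the right panel the mitochondrially encoded share of the signal (%) against the Xist signal. The groups separate along the first component, while replicate 5 at 48 h and replicate 7 at 0 h lie high on the second and hold 656 and 284 units of Xist.

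A large share of genes differed after 48 h. Signal here means the deposited value, an estimated number of reads divided by a scale factor for the library, and changes are log2(signal + 1) at 48 h minus that at 0 h, ± the standard error of limma's model. At an adjusted p under 0.05, 4215 genes (38.1%) were called, 2325 (21%) higher and 1890 (17.1%) lower at 48 h. The median change of all genes was 0.06, and the median size of a called change was 0.54. Changes beyond 1 on the log2 scale were seen in 307 called genes that rose and 319 that fell, and changes beyond 2 in 35 that rose and 34 that fell. In 1532 genes (13.8%) the 2 groups did not overlap at all, with 832 genes wholly above and 700 wholly below the 0 h libraries, and 1521 of these were among the calls. Of the genes in the lowest of 4 equal bins by mean signal 30.9% were called, against 46.7% in the highest bin. Every gene reached at least 100 units in some library, so a gene low in 1 group may be present only through another. Processed pseudogenes, copies whose reads can be split with those of the parent gene, were called higher in 19.0% and lower in 7.86% of 751 cases, against 21.2% and 17.9% of 9922 protein-coding genes. The authors' deposited table lists 4908 genes at a false discovery rate under 0.05 for the same comparison; it holds 99.7% of the genes called here, and 0 of the shared genes have the opposite direction. Fewer cells of a type and less RNA per cell cannot be told apart in whole muscle. The titles number the 48 h libraries 1 to 8 and the 0 h libraries 9 to 16, so library order and unloading cannot be told apart either.

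**Figure D2:**
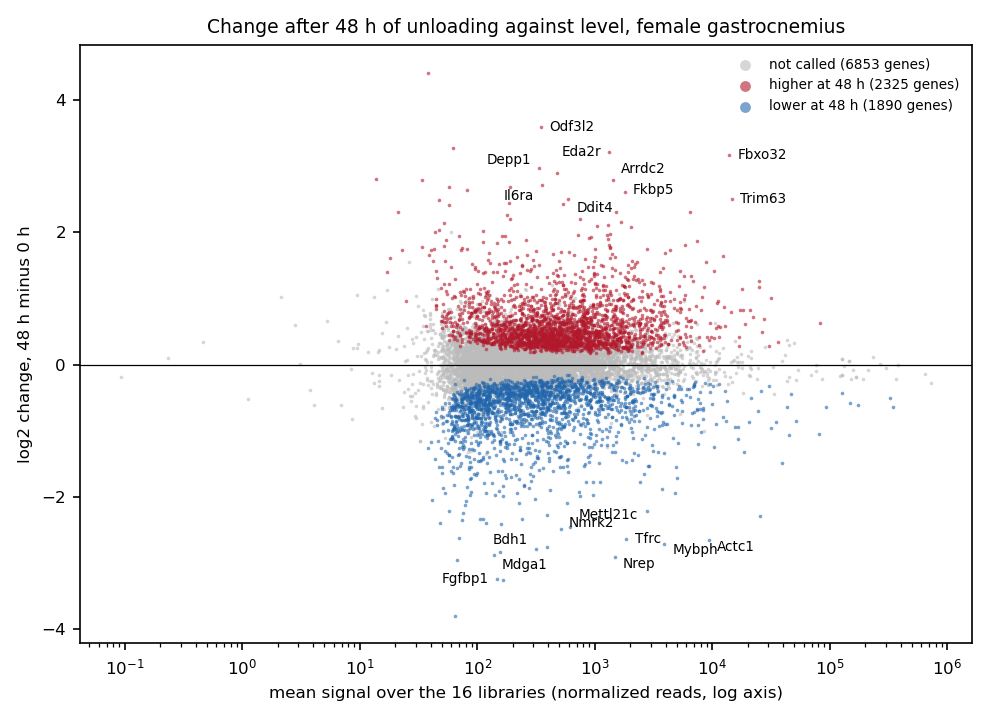
Each point is 1 of the 11068 genes, with its mean signal over the 16 libraries on the x axis (log scale) and its log2 change, 48 h minus 0 h, on the y axis; red points were called higher (2325), blue points lower (1890) and grey points not called. Names mark genes among the highest and lowest called changes with a mean signal of at least 100; Odf3l2 (3.58) and Fgfbp1 (-3.23) lie farthest from 0 among them.

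The genes with the largest changes belonged to several different functions. Odf3l2, named after a protein family of the sperm tail, spanned 90.2 to 1450 units (median 714) at 48 h and 18.0 to 77.6 (median 30.6) at 0 h, a change of 3.58 ± 0.52 (adjusted p = 1.3e-06). Eda2r, a receptor for the ligand ectodysplasin A2 and a target of p53, spanned 1039 to 4066 (median 2030) at 48 h and 154 to 347 (median 237) at 0 h, and rose by 3.22 ± 0.34 (adjusted p = 5.4e-09). In both genes every 48 h library lay above every 0 h library. Also among the 10 highest were Il6ra, a subunit of the interleukin-6 receptor, at 2.71 ± 0.32 (adjusted p = 6.1e-08), and Arrdc2, an arrestin-domain protein, at 2.79 ± 0.34 (adjusted p = 6.6e-08). At the other end stood Nrep, a small protein first described in regenerating nerve, with 167 to 758 units (median 319) at 48 h and 2120 to 2808 (median 2612) at 0 h. Nrep changed by -2.91 ± 0.23 (adjusted p = 4.2e-11), so that the 48 h level was 0.133 times the 0 h level, and it shared the smallest adjusted p of the table with Inmt. Mdga1, a membrane protein that regulates contacts between cells, changed by -2.87 ± 0.36 (adjusted p = 1.2e-07), and Mettl21c, a lysine methyltransferase of muscle, by -2.46 ± 0.26 (adjusted p = 6.6e-09). Unless a count is given, all 8 libraries at 48 h lay on the stated side of the 0 h mean for every gene said to have risen or fallen.

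Genes with the smallest p-values had changes of many sizes. Inmt, an enzyme that methylates small amines, spanned 536 to 1303 units (median 823) at 48 h and 101.8 to 241 (median 161) at 0 h, 5.35-fold higher. Serinc3, a membrane lipid scramblase, rose by 0.93 ± 0.08 (adjusted p = 1.7e-10), Nsun2, an RNA methyltransferase, by 0.91 ± 0.08 (adjusted p = 1.7e-10), and Rab12, a small GTPase of endosome traffic, by 0.98 ± 0.09 (adjusted p = 1.7e-10). Lman2l, a lectin of the endoplasmic reticulum, was at 135 to 230 (median 190) at 48 h and 347 to 470 (median 387) at 0 h, a change of -1.06 ± 0.09 (adjusted p = 1.7e-10). None of these 5 genes had overlapping groups. On a build like mm39, which the tables do not name, Psmd2 (ENSMUSG00000006998) lies on chromosome 16 from 20470402 to 20482164, Inmt (ENSMUSG00000003477) on chromosome 6 from 55147611 to 55152028, Nrep (ENSMUSG00000042834) on chromosome 18 from 33570072 to 33597082, Tfrc (ENSMUSG00000022797) on chromosome 16 from 32427738 to 32451612 and Actg1 (ENSMUSG00000062825) on chromosome 11 from 120236516 to 120239368. The tables annotate each as a protein-coding gene.

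**Figure D3:**
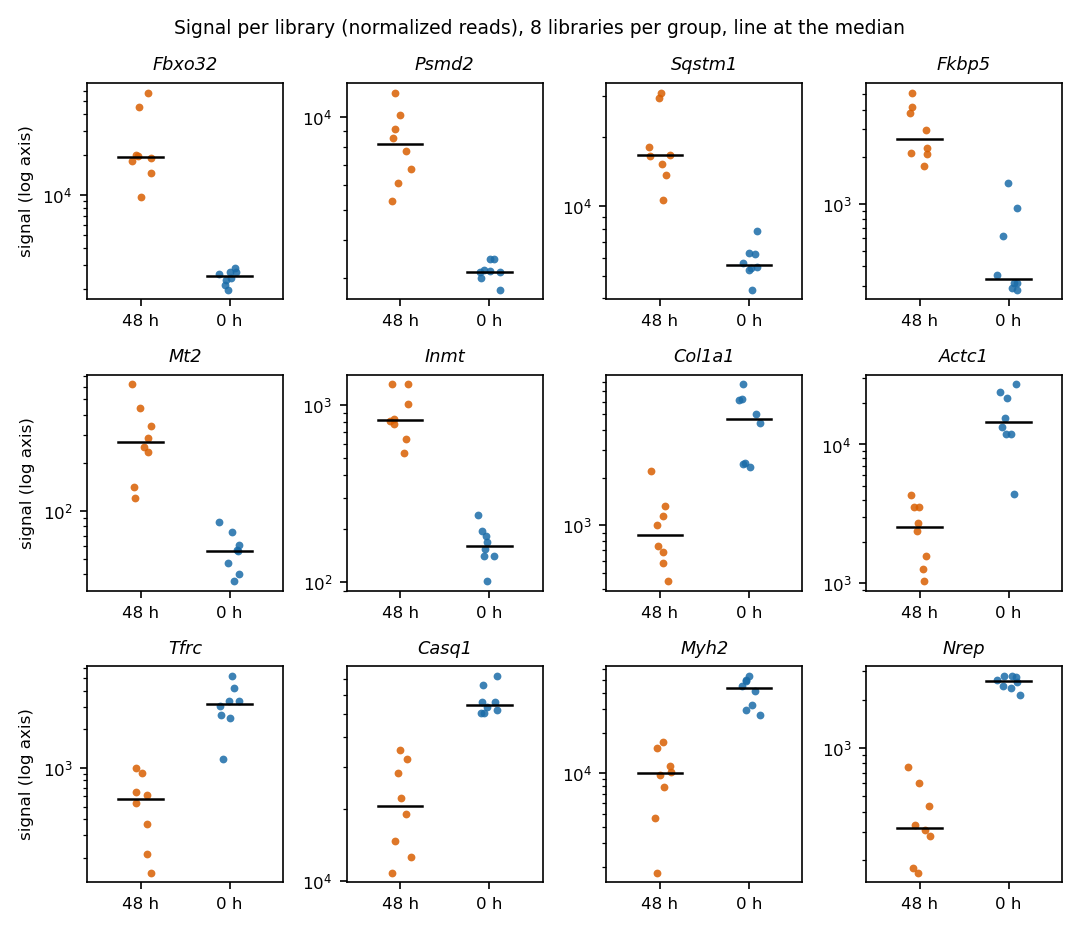
Signal of 12 genes in each library on log axes, with the 8 libraries at 48 h (orange) left of the 8 at 0 h (blue) and a line at each group's median. For all 12 genes the 2 groups do not overlap: Fbxo32, Psmd2, Sqstm1, Fkbp5, Mt2 and Inmt are higher at 48 h, and Col1a1, Actc1, Tfrc, Casq1, Myh2 and Nrep are lower.

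For every list below, the shares called among all genes were 21% higher and 17.1% lower, and 13.8% of all genes had no overlap of groups. Most members named from a list were chosen by small p-values, so a lack of overlap in them does not describe the list. Among ubiquitin ligases of muscle and their partners, 8 of 22 rose and 4 fell, with a median change of 0.21. The best known of them, Fbxo32 (atrogin-1), spanned 9691 to 57923 units (median 19357) at 48 h and 1975 to 2846 (median 2484) at 0 h, 8.94-fold higher (3.16 ± 0.42, adjusted p = 3.8e-07). Trim63 (MuRF1), which tags myosin and other parts of the thick filament, spanned 7664 to 79426 (median 16112) at 48 h and 2868 to 3929 (median 3504) at 0 h, 5.66-fold higher (2.50 ± 0.39, adjusted p = 4.9e-06). The 48 h libraries of both genes varied several-fold among themselves while the 0 h libraries stayed within a narrow band, and the groups did not overlap. Fbxo31, another F-box protein, rose by 1.11 ± 0.12 (adjusted p = 1.0e-08), and Ubr2, a ligase of the N-degron pathway, by 0.57 ± 0.11 (adjusted p = 6.3e-05). Fbxl22, an F-box protein of the sarcomere, moved the other way, with 8.59 to 19.5 units (median 15.2) at 48 h and 76.6 to 175 (median 114) at 0 h (-2.95 ± 0.35, adjusted p = 6.1e-08).

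The promoter of Trim63 is shown because FoxO factors are known to act on it. In the RefSeq window of GRCm38.p6, chr4:134314870-134315169 on the plus strand, from 250 bases before to 50 bases after the gene's start, the letters GTAAACA, searched on both strands and marked by capitals, occur once, at position -194 from the start.
Trim63: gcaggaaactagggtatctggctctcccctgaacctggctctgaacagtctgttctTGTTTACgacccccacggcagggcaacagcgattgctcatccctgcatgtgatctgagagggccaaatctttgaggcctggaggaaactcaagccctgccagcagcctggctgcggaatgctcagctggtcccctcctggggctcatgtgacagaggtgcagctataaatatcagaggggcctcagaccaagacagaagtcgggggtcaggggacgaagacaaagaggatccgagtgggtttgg
The same letters stand in 3.7% of the 1758 promoters of genes that rose, 2.78% of the 1405 of genes that fell and 3.07% of all 8091 genes with a promoter in RefSeq. A match is a description of the sequence and not evidence of binding.

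All 32 genes of the 26S proteasome rose, by a median of 1.02, where 21% of all genes were called higher. The smallest change was 0.46 and the largest 1.68, and in 29 of the 32 genes the groups did not overlap, against 13.8% of all genes. The rise ran through every part of the particle: the 7 subunits of the alpha ring rose by 0.50 to 1.36, the 7 of the beta ring, which holds the cutting sites, by 0.46 to 1.19, the 6 ATPases of the cap by 0.82 to 1.29, and its 11 other subunits by 0.65 to 1.68. Psmd2, a scaffold subunit of the cap's base, spanned 5315 to 11960 units (median 8149) at 48 h and 2752 to 3469 (median 3147) at 0 h, 2.53-fold higher (1.34 ± 0.12, adjusted p = 1.7e-10). Psmd8, a lid subunit, was at 3577 to 9688 (median 5645) at 48 h and 1510 to 2198 (median 1907) at 0 h, 3.20-fold higher (1.68 ± 0.17, adjusted p = 1.6e-09). Psmc3 and Psmc1, ATPases that unfold and thread substrates, rose by 0.96 ± 0.09 (adjusted p = 6.5e-10) and 1.02 ± 0.11 (adjusted p = 3.8e-09), and Psmd4, a ubiquitin receptor, by 1.46 ± 0.16 (adjusted p = 7.4e-09). Without the libraries that stood apart the count was 32 and the median 1.02.

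Of 18 ubiquitin genes, conjugating enzymes and members of the unfolding machinery, 10 rose and 2 fell (median 0.47). The Vcp unfoldase, which extracts ubiquitylated proteins from assemblies, and both of its classical cofactors rose: Nploc4 by 1.74 ± 0.20 (adjusted p = 2.7e-08), Ufd1 by 1.02 ± 0.11 (adjusted p = 5.5e-09) and Vcp itself by 0.79 ± 0.11 (adjusted p = 6.3e-07). Vcp spanned 5390 to 8073 units (median 6555) at 48 h and 3172 to 4992 (median 3814) at 0 h, with no overlap. Ube2j1, a conjugating enzyme of the endoplasmic reticulum, rose by 0.63 ± 0.08 (adjusted p = 9.1e-08) and Ube2o, a large enzyme that both conjugates and ligates, by 0.84 ± 0.16 (adjusted p = 6.0e-05). The groups overlapped in Ube2o.

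Of 29 autophagy and lysosome genes 18 rose and 0 fell, with a median change of 0.43. Sqstm1 (p62), the receptor that links ubiquitylated cargo to the autophagosome, spanned 10696 to 30970 units (median 16616) at 48 h and 4360 to 7824 (median 5557) at 0 h, 3.10-fold higher (1.63 ± 0.20, adjusted p = 8.4e-08). Map1lc3b, which coats the autophagosome membrane, rose by 1.03 ± 0.12 (adjusted p = 4.3e-08), Nbr1, a second cargo receptor, by 0.81 ± 0.12 (adjusted p = 3.1e-06), and Bnip3, a receptor for mitochondria, by 1.14 ± 0.16 (adjusted p = 1.3e-06). The lysosomal protease Ctsd was at 9962 to 21674 (median 15445) at 48 h and 6625 to 9331 (median 7342) at 0 h (0.96 ± 0.13, adjusted p = 3.1e-07). Groups did not overlap in any of these 5 genes. Under quantile normalization the counts were 15 higher and 1 lower.

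Of 15 FoxO factors and genes linked to them, 10 rose and 1 fell (median 0.76). Foxo1 spanned 360 to 1776 units (median 578) at 48 h and 193 to 275 (median 225) at 0 h, 2.95-fold higher (1.56 ± 0.27, adjusted p = 2.7e-05), and Foxo3 rose by 0.87 ± 0.13 (adjusted p = 1.6e-06). The fall was in Foxo6, a family member that does not shuttle out of the nucleus as the others do, with 4.97 to 33.9 units (median 28.1) at 48 h and 53.7 to 200 (median 111) at 0 h (-2.35 ± 0.35, adjusted p = 2.0e-06). The members of the family thus differed in direction in the same libraries, with no overlap of groups in any of the 3. Depp1, a FoxO target tied to autophagy, spanned 134 to 1485 (median 519) at 48 h and 44.7 to 104.996 (median 52.9) at 0 h (2.97 ± 0.49, adjusted p = 1.2e-05). Pik3ip1, an inhibitor of PI3 kinase, rose by 0.90 ± 0.17 (adjusted p = 8.1e-05).

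In a mixed list of p53 targets and growth arrest genes, 9 of 19 rose and 3 fell (median 0.25). Cdkn1a, the cell cycle inhibitor p21, spanned 704 to 2893 units (median 1094) at 48 h and 214 to 686 (median 336) at 0 h, 3.81-fold higher (1.93 ± 0.29, adjusted p = 2.8e-06). Phlda3, an inhibitor of Akt, rose by 1.07 ± 0.17 (adjusted p = 5.4e-06), Mdm2, the ligase that removes p53, by 0.68 ± 0.14 (adjusted p = 0.00017), and Ccng2, a cyclin that slows division, by 0.60 ± 0.13 (adjusted p = 0.00025). Groups did not overlap in these 4 genes or in Eda2r, which stands in the same list.

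Targets of the glucocorticoid receptor rose in 14 of 17 cases and fell in 0, and their median change of 1.09 was the highest of the 34 lists. Fkbp5, which lowers the receptor's affinity for hormone, spanned 1749 to 5115 units (median 2611) at 48 h and 283 to 1352 (median 331) at 0 h, 6.07-fold higher (2.60 ± 0.28, adjusted p = 7.4e-09). The 0 h libraries were themselves spread, with the highest at 1352 units. Pnmt, which makes adrenaline, was at 45.5 to 302 (median 130) at 48 h and 11.2 to 35.95 (median 16.6) at 0 h (2.64 ± 0.33, adjusted p = 9.7e-08). Tsc22d3 (GILZ), a hormone-induced regulator of inflammation, rose by 1.40 ± 0.17 (adjusted p = 6.3e-08) and Glul, glutamine synthetase, by 1.09 ± 0.16 (adjusted p = 1.0e-06), both with overlapping groups. Ddit4 (REDD1), an inhibitor of mTORC1 that belongs to this list and to those of FoxO and mTORC1, spanned 304 to 1508 (median 1277) at 48 h and 110 to 399 (median 134) at 0 h (2.50 ± 0.49, adjusted p = 0.00012), with overlapping groups.

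**Figure D4:**
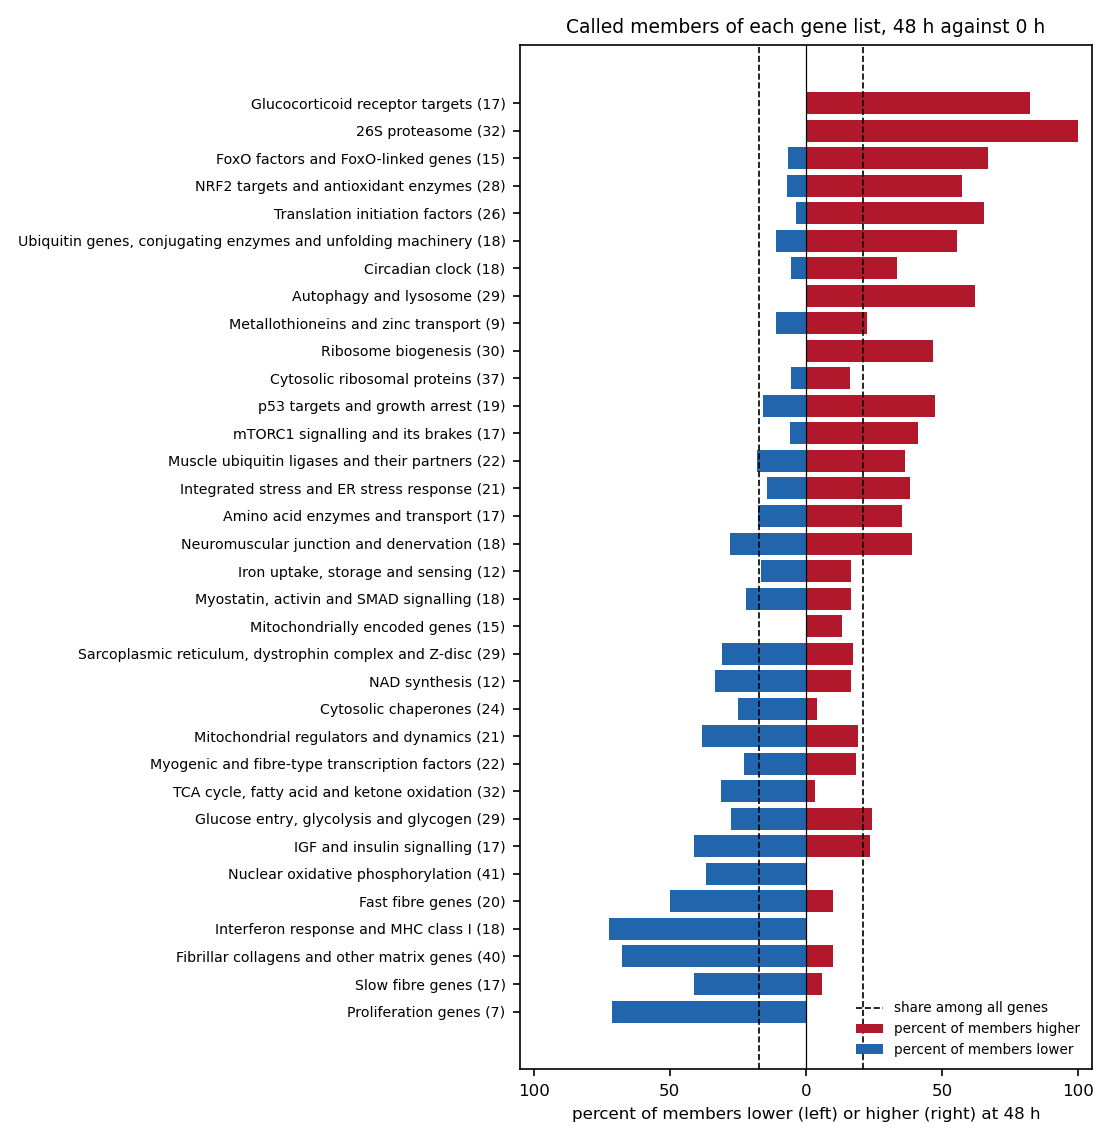
For each of the 34 gene lists, with the number of measured members in parentheses, red bars to the right give the percent of members called higher at 48 h and blue bars to the left the percent called lower; dashed lines mark the shares among all genes, 21% higher and 17.1% lower. Lists are ordered by median change, from glucocorticoid receptor targets (1.09) at the top to proliferation genes (-1.06) at the bottom.

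Of 17 genes of mTORC1 signalling and its brakes, 7 rose and 1 fell (median 0.25). Eif4ebp1, which blocks the cap-binding factor of translation until mTORC1 phosphorylates it, spanned 947 to 4685 units (median 1893) at 48 h and 338 to 526 (median 435) at 0 h, 4.33-fold higher (2.11 ± 0.25, adjusted p = 3.6e-08). Flcn, part of the complex that positions mTORC1 on lysosomes, rose by 0.67 ± 0.13 (adjusted p = 7.2e-05), the kinase Akt1 by 0.99 ± 0.20 (adjusted p = 0.00014) and Rheb, the activator of mTORC1, by 0.43 ± 0.12 (adjusted p = 0.0041).

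Insulin-like growth factor and insulin signalling gave 4 members of 17 higher and 7 lower (median -0.28). The ligand Igf1 spanned 57.9 to 181 units (median 153) at 48 h and 109.4 to 404 (median 267) at 0 h, 0.512 times the control level (-0.96 ± 0.26, adjusted p = 0.0033), and Igf2 fell by 0.56 on the log2 scale (SE 0.11, adjusted p = 7.0e-05). Of the binding proteins that hold these ligands, Igfbp5 was at 1112 to 3315 (median 2549) at 48 h and 4256 to 9111 (median 7833) at 0 h (-1.54 ± 0.25, adjusted p = 6.4e-06), and Igfbp7 changed by -0.84 ± 0.15 (adjusted p = 3.4e-05). Igfbp3 rose instead, by 1.24 ± 0.20 (adjusted p = 9.7e-06). Downstream, Pik3r1, the regulatory subunit of PI3 kinase, spanned 1080 to 3427 (median 1991) at 48 h and 283 to 892 (median 618) at 0 h, 3.51-fold higher (1.81 ± 0.26, adjusted p = 1.0e-06). The ligands therefore stood lower and the kinase subunit higher in the same libraries.

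Myostatin itself did not pass the test used here. In the authors' deposited comparison it passed narrowly, with a ratio of 1.49 and a false discovery rate of 0.045. Mstn spanned 724 to 3566 units (median 1277) at 48 h and 486 to 1383 (median 1127) at 0 h (0.50 ± 0.25, adjusted p = 0.12; above the 0 h mean in 7 of 8 libraries), and without replicate 3 at 48 h it passed, at 0.63 (adjusted p = 0.045). In its list of 18 genes 3 rose and 4 fell, shares near those of all genes. Acvr1b, an activin receptor through which myostatin signals, rose by 1.18 ± 0.16 (adjusted p = 4.9e-07) and Smad4, the shared SMAD, by 0.51 ± 0.11 (adjusted p = 0.00031). Gdf11, the closest relative of myostatin, was at 24.5 to 95.9 (median 77.3) at 48 h and 146 to 221 (median 178) at 0 h (-1.39 ± 0.28, adjusted p = 0.00014). Fstl1, a secreted follistatin-like protein, changed by -1.20 ± 0.17 (adjusted p = 9.3e-07).

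Genes that build and start ribosomes were more often higher than lower. Of 26 translation initiation factors, to which the elongation factor Eef2 is counted, 17 rose and 1 fell (median 0.52), and of 30 genes of ribosome biogenesis 14 rose and 0 fell (median 0.29). Eif4b, which helps unwind the messenger's leader, spanned 6102 to 8593 units (median 6745) at 48 h and 3269 to 3961 (median 3619) at 0 h (0.95 ± 0.12, adjusted p = 1.4e-07). Eif4g3, a scaffold of the cap complex, rose by 0.89 ± 0.11 (adjusted p = 2.0e-07), Eif3c and Eif3b, subunits of the factor that recruits the small ribosomal subunit, by 0.64 ± 0.08 (adjusted p = 1.1e-07) and 0.67 ± 0.11 (adjusted p = 6.5e-06), and Eef2 by 0.72 ± 0.11 (adjusted p = 5.6e-06). In ribosome biogenesis Ddx21, a nucleolar helicase, rose by 1.03 ± 0.21 (adjusted p = 0.00022), Pes1, needed to process the large subunit's RNA, by 0.59 ± 0.11 (adjusted p = 6.8e-05), and Polr1b, a subunit of RNA polymerase I, by 0.52 ± 0.10 (adjusted p = 6.2e-05). Ribosomal protein genes stayed nearer the background, with 6 of 37 higher and 2 lower (median 0.26); 11 were higher when each library was scaled to the same total.

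Nuclear genes of oxidative phosphorylation fell or did not pass the test. Of 41 measured members 0 rose and 15 fell, with a median of -0.32 and a range of -0.76 to 0.04; under quantile normalization 25 fell. Cyc1, the cytochrome c1 of complex III, spanned 2313 to 4679 units (median 3667) at 48 h and 4819 to 7231 (median 5825) at 0 h (-0.76 ± 0.14, adjusted p = 7.3e-05). Sdhd and Sdhc, membrane anchors of complex II, changed by -0.72 ± 0.12 (adjusted p = 1.2e-05) and -0.61 ± 0.12 (adjusted p = 0.00018), cytochrome c (Cycs) by -0.71 ± 0.15 (adjusted p = 0.00033) and Ndufb10 of complex I by -0.63 ± 0.15 (adjusted p = 0.00081). In all 5 the groups did not overlap, and they were the only such members among the 41 measured. Of all genes 13.8% had no overlap. The mitochondrial genome behaved differently: of its 15 measured transcripts the calls were both ribosomal RNAs, mt-Rnr1 at 0.79 ± 0.21 (adjusted p = 0.0026) and mt-Rnr2 at 0.62 ± 0.20 (adjusted p = 0.015), both higher, and the other 13 were not called. The level of ribosomal RNA depends on how a library is prepared, and the labels do not say whether polyadenylated RNA was selected or ribosomal RNA removed; the part this plays was not tested.

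In the list of the TCA cycle and of fatty acid and ketone oxidation 1 of 32 members rose and 10 fell (median -0.17). Bdh1, which starts ketone oxidation, spanned 10.3 to 195 units (median 85.9) at 48 h and 386 to 783 (median 500) at 0 h, 0.145 times the control level (-2.78 ± 0.40, adjusted p = 1.2e-06). Oxct1, the next enzyme of ketone use, was at 1683 to 4079 (median 3177) at 48 h and 5417 to 7456 (median 6180) at 0 h (-1.11 ± 0.17, adjusted p = 2.4e-06). The genes of both enzymes were thus lower with no overlap of groups. Over the list 5 of 32 members had no overlap, a share near the 13.8% of all genes. The TCA enzymes Idh3a and Dlst changed by -0.67 ± 0.11 (adjusted p = 7.5e-06) and -0.40 ± 0.08 (adjusted p = 0.00017), and Mdh1, cytosolic malate dehydrogenase, by -0.66 ± 0.14 (adjusted p = 0.00028). Of 21 mitochondrial regulators 4 rose and 8 fell. Ppargc1a, the coactivator PGC-1 alpha, did not pass, with 218 to 752 units (median 460) at 48 h and 196 to 588 (median 429) at 0 h (0.23 ± 0.23, adjusted p = 0.44), while its relative Ppargc1b was at 13.8 to 64.7 (median 49.3) at 48 h and 81.96 to 176 (median 131) at 0 h (-1.55 ± 0.26, adjusted p = 1.5e-05). Its partner receptor Esrra changed by -0.83 ± 0.14 (adjusted p = 1.9e-05), the muscle regulator Perm1 by -1.13 ± 0.17 (adjusted p = 3.8e-06) and the mitochondrial deacetylase Sirt3 by -0.82 ± 0.14 (adjusted p = 2.4e-05).

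Of 29 genes of glucose entry, glycolysis and glycogen 7 rose (24.1%) and 8 fell (27.6%), where 21% and 17.1% of all genes did. Gbe1, which adds branches to glycogen, rose by 1.38 ± 0.17 (adjusted p = 9.7e-08), and Arrdc4, which like Arrdc2 is an arrestin-domain relative of the glucose-uptake inhibitor Txnip, rose by 0.88 ± 0.14 (adjusted p = 5.2e-06). Pgam2, the muscle phosphoglycerate mutase, spanned 5118 to 15274 units (median 11522) at 48 h and 22395 to 30089 (median 26364) at 0 h (-1.32 ± 0.22, adjusted p = 9.7e-06). Eno3, the muscle enolase, was at 31813 to 80324 (median 53918) at 48 h and 89426 to 119747 (median 110186) at 0 h (-1.05 ± 0.19, adjusted p = 2.9e-05). In both the groups did not overlap, and under quantile normalization the list held 8 higher and 10 lower.

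Of the adult myosin heavy chains only Myh2, of the fast oxidative IIA fibres, passed the test. Myh2 spanned 1819 to 17184 units (median 9982) at 48 h and 27261 to 53252 (median 42994) at 0 h, 0.206 times the control level (-2.28 ± 0.42, adjusted p = 5.2e-05). The changes of the others were -1.002 ± 0.60 for Myh7 of slow fibres (adjusted p = 0.19), 0.32 ± 0.32 for Myh1 of IIX fibres (adjusted p = 0.44) and -0.29 ± 0.16 for Myh4 of IIB fibres (adjusted p = 0.16), which were below, above and below the 0 h mean in 7, 6 and 7 of 8 libraries. As a share of the summed signal of these 4 genes, whose transcripts are of like length, Myh2 made up 0.246 to 2.86% (median 1.21%) at 48 h and 2.82 to 6.74% (median 4.25%) at 0 h. The shares of Myh1 were 2.22 to 15.4% (median 8.46%) at 48 h and 3.52 to 6.67% (median 4.51%) at 0 h, and those of Myh4 79.2 to 97.5% (median 89.5%) at 48 h and 85.9 to 93.3% (median 89.99%) at 0 h. With library weights Myh1 was called higher, at 0.69 (adjusted p = 0.011). The Myh1 and Myh4 shares thus overlapped widely, and those of Myh1 varied more among the 48 h libraries.

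Slow and fast fibre lists both held more members that fell. Of 17 slow fibre genes 1 rose and 7 fell (median -1.01), and of 20 fast fibre genes 2 rose and 10 fell (median -0.35). Casq2, the calcium buffer of slow and cardiac muscle, changed by -1.98 ± 0.26 (adjusted p = 3.1e-07), and the stretch-responsive proteins Ankrd2 and Csrp3, which sit at the Z-disc and titin, by -1.97 ± 0.37 (adjusted p = 7.8e-05) and -2.33 ± 0.46 (adjusted p = 0.00011). Csrp3 spanned 89.5 to 859 units (median 283) at 48 h and 1052 to 2000 (median 1543) at 0 h. Casq1, the fast-fibre calcium buffer, was at 10822 to 35404 (median 20590) at 48 h and 50514 to 72233 (median 54730) at 0 h, 0.356 times the control level (-1.49 ± 0.21, adjusted p = 6.6e-07), and Mylk2, the myosin light chain kinase of fast muscle, rose by 0.82 ± 0.15 (adjusted p = 2.8e-05). Groups did not overlap in these 5 genes. Over the lists, 3 of 17 slow and 6 of 20 fast fibre genes had no overlap, where 13.8% of all genes had none. Mybph, a myosin-binding protein, spanned 367 to 1838 (median 1537) at 48 h and 4482 to 8517 (median 6615) at 0 h (-2.71 ± 0.38, adjusted p = 8.7e-07).

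The actin genes Actc1, Actg1 and Acta1, and the factor that is known to control them, were lower. Actc1, the cardiac and embryonic actin, spanned 1040 to 4310 units (median 2552) at 48 h and 4399 to 27088 (median 14458) at 0 h (-2.65 ± 0.41, adjusted p = 4.3e-06), and cytoplasmic Actg1 spanned 979 to 1809 (median 1501) at 48 h and 3333 to 4817 (median 4189) at 0 h (-1.53 ± 0.13, adjusted p = 1.7e-10). Adult skeletal Acta1, the main actin of the thin filament, was at 192052 to 300468 (median 285640) at 48 h and 342864 to 508742 (median 424906) at 0 h (-0.65 ± 0.14, adjusted p = 0.00029). These 3 actins fell with no overlap of groups, while Acta2, the smooth muscle actin, was measured and not called. Srf, the serum response factor that binds CArG boxes in actin promoters, changed by -0.63 ± 0.11 (adjusted p = 1.5e-05), and its coactivator Mrtfa, which monomeric actin holds in the cytoplasm, spanned 61.97 to 329 units (median 175) at 48 h and 516 to 716 (median 647) at 0 h (-1.90 ± 0.29, adjusted p = 3.3e-06). The promoters of the 3 actins and of Srf are shown because each window holds the box. They are RefSeq windows of GRCm38.p6 as above, all on the minus strand, with CArG boxes in capitals. Actc1 is at chr2:114052826-114053125 (box at -47), Actg1 at chr11:120348446-120348745 (-90), Acta1 at chr8:123894726-123895025 (-73) and Srf at chr17:46556113-46556412 (-82 and -62).
Actc1: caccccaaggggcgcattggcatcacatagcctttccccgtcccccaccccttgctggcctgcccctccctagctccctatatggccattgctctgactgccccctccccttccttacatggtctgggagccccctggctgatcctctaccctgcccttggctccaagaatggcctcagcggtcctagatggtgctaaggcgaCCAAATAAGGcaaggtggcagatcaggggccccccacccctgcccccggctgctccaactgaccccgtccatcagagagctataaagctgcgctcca
Actg1: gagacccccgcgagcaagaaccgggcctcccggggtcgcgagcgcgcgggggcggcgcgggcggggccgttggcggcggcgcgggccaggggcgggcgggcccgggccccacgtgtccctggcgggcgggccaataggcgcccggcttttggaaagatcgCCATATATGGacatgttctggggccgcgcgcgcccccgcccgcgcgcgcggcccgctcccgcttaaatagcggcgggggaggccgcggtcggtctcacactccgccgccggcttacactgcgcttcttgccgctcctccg
Acta1: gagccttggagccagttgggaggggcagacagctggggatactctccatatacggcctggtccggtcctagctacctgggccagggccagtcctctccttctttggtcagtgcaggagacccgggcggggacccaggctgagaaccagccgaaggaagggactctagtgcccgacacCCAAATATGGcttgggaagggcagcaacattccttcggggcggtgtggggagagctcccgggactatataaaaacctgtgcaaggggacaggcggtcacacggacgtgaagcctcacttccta
Srf: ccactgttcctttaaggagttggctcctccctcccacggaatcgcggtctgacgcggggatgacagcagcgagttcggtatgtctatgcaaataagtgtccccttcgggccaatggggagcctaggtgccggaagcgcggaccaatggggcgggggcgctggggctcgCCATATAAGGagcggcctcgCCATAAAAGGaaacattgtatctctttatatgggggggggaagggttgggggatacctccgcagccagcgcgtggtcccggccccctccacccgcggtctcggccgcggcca
A CArG box, searched on both strands, stands in 2.7% of the promoters of genes that fell, 1.65% of those that rose and 1.69% of all 8091. Of the 15 fast fibre genes with a promoter, Actc1 among them, 3 hold one. So do 3 of 18 genes in the ubiquitin ligase list, where more genes rose than fell. In lists where more genes fell, 1 of 15 slow fibre genes and 1 of 25 matrix genes hold one.

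Among 22 myogenic and fibre-type transcription factors 4 rose and 5 fell, shares near those of all genes. Mafa, a large Maf factor that promotes IIB myosin in mice, changed by -1.53 ± 0.20 (adjusted p = 3.1e-07). Tbx15, a factor of glycolytic fibres, rose by 0.73 ± 0.11 (adjusted p = 2.6e-06) and Myf6 (MRF4), the most abundant myogenic factor of adult muscle, by 0.99 ± 0.17 (adjusted p = 1.2e-05). Myog, which rises in denervated muscle, was not called, with 73.7 to 207 units (median 93.8) at 48 h and 93.03 to 137 (median 123) at 0 h (-0.11 ± 0.19, adjusted p = 0.70), and it was called lower with library weights (-0.40, adjusted p = 0.020).

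The list of the neuromuscular junction and of denervation held 7 genes of 18 that rose and 5 that fell. Fgfbp1, a carrier of fibroblast growth factors that helps maintain the junction in mice, spanned 12.2 to 59.7 units (median 27.2) at 48 h and 200 to 352 (median 273) at 0 h, 0.107 times the control level (-3.23 ± 0.29, adjusted p = 1.7e-10). Chrna1, the acetylcholine receptor subunit that rises strongly when a nerve is cut, was at 174 to 365 (median 295) at 48 h and 234 to 320 (median 276) at 0 h (0.01 ± 0.13, adjusted p = 0.95), and its sign changed with the processing. Chrnb1, another subunit, rose by 0.55 ± 0.11 (adjusted p = 0.00022), Hdac4, a deacetylase that mediates signals of denervation, by 0.84 ± 0.11 (adjusted p = 1.2e-07), and Runx1, a transcription factor induced in denervated muscle, by 1.47 ± 0.35 (adjusted p = 0.0011). Ache, acetylcholinesterase, changed by -1.17 ± 0.27 (adjusted p = 0.00064). The list thus held genes that moved in both directions.

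In the sarcoplasmic reticulum, the dystrophin complex and the Z-disc 5 of 29 genes rose (17.2%) and 9 fell (31.0%), where 21% and 17.1% of all genes did. Sypl2, a membrane protein of the triad, spanned 785 to 3678 units (median 2268) at 48 h and 6247 to 9089 (median 7431) at 0 h (-1.94 ± 0.23, adjusted p = 6.8e-08). Jph2, which ties the reticulum to the surface membrane, was at 4482 to 8753 (median 5676) at 48 h and 12233 to 17382 (median 14501) at 0 h (-1.25 ± 0.16, adjusted p = 1.2e-07), and Ldb3, a Z-disc scaffold, changed by -0.70 ± 0.11 (adjusted p = 7.0e-06). These 3 structural genes fell with no overlap of groups. Nos1, the nitric oxide synthase bound to the dystrophin complex, rose by 1.47 ± 0.24 (adjusted p = 1.0e-05), and Nrap, a protein of the growing myofibril's end, by 1.01 ± 0.16 (adjusted p = 4.1e-06).

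Genes of the extracellular matrix fell more often than they rose. Of 40 measured members 27 fell and 4 rose, with a median change of -0.81, where 17.1% of all genes were called lower. Col1a1, a chain of the main fibrillar collagen, spanned 446 to 2188 units (median 874) at 48 h and 2325 to 7740 (median 4711) at 0 h, 0.216 times the control level (-2.21 ± 0.33, adjusted p = 2.6e-06). Col3a1 was at 624 to 2374 (median 1091) at 48 h and 1850 to 6349 (median 4065) at 0 h (-1.66 ± 0.29, adjusted p = 2.2e-05). The groups did not overlap in Col1a1 and overlapped in Col3a1. Counted by symbol, 24 collagen chains were in the table, of which 21 fell, 1 rose and 2 were not called (median -1.11). Among them Col6a2 of the beaded microfibrils changed by -1.77 ± 0.22 (adjusted p = 1.3e-07) and Col15a1 of the basement membrane zone by -1.55 ± 0.20 (adjusted p = 1.8e-07). Both collagen IV chains, the network of the basement membrane itself, were called, at -0.52 and -0.51.

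Also in the matrix list were 2 proteins that fold and modify collagen. Serpinh1 (HSP47), the collagen chaperone of the endoplasmic reticulum, spanned 316 to 574 units (median 466) at 48 h and 900 to 1684 (median 1371) at 0 h (-1.47 ± 0.14, adjusted p = 3.3e-10). P4ha1, the prolyl hydroxylase that stabilises the triple helix, changed by -0.97 ± 0.10 (adjusted p = 5.5e-09). Against the trend of its list, Ccn1 (CYR61), a matricellular protein that responds to YAP, rose to 616 to 1301 units (median 911) at 48 h, against 171 to 364 (median 304) at 0 h (1.697 ± 0.17, adjusted p = 3.2e-09). In these 3 genes the groups did not overlap.

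Markers of cells that make matrix fell in part, and some of them, such as Kera, are matrix proteins themselves. Of 6 measured tenocyte markers 5 fell and 0 rose (median -1.17), and their summed signal was 1493 to 7091 units (median 4248) at 48 h and 4001 to 10783 (median 6929) at 0 h. Kera, a proteoglycan of tendon, changed by -1.94 ± 0.36 (adjusted p = 6.3e-05), and Tnmd, tenomodulin, by -1.73 ± 0.37 (adjusted p = 0.00036). Comp and the tendon transcription factor Scx changed by -1.42 ± 0.41 (adjusted p = 0.0056) and -0.92 ± 0.30 (adjusted p = 0.013; below the 0 h mean in 7 of 8). Fmod, fibromodulin, changed by -0.81 ± 0.31 (adjusted p = 0.038, 7 of 8). It missed the threshold in 10 of 24 alternatives, among them that without both libraries that stood apart (adjusted p = 0.085). Of 7 markers of fibro-adipogenic progenitors, the resident fibroblast-like cells, 4 fell and 0 rose, while their summed signal was 10142 to 15573 (median 11341) at 48 h and 9453 to 14434 (median 11599) at 0 h. Lum, lumican, changed by -1.09 ± 0.22 (adjusted p = 0.00012), Cd34 by -0.56 ± 0.12 (adjusted p = 0.00039) and Pi16 by -0.73 ± 0.19 (adjusted p = 0.0029, 7 of 8). The remaining marker that fell lost its call in 7 of 24 alternatives. The part that the number of tendon or connective tissue cells in a sample plays in the fall of the matrix genes was not tested.

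The chaperone and stress lists were uneven. Of 24 cytosolic chaperones 1 rose and 6 fell. The riser was Hsp90ab1, the constitutive HSP90, with 19648 to 35588 units (median 26413) at 48 h and 12730 to 17640 (median 14899) at 0 h (0.82 ± 0.12, adjusted p = 1.3e-06), and those that fell included Bag2, a co-chaperone (-0.76 ± 0.11, adjusted p = 1.3e-06), and the small heat shock proteins Cryab (-0.91 ± 0.19, adjusted p = 0.00030) and Hspb6 (-0.72 ± 0.16, adjusted p = 0.00044). Of 21 genes of the integrated and ER stress responses 8 rose and 3 fell. Ppp1r15a (GADD34), which restores translation after stress, spanned 985 to 4177 (median 1358) at 48 h and 361 to 659 (median 503) at 0 h (1.90 ± 0.29, adjusted p = 3.4e-06). Chac1, which degrades glutathione, rose by 2.199 ± 0.44 (adjusted p = 0.00014) and Atf4, the response's transcription factor, by 0.74 ± 0.15 (adjusted p = 0.00019). Ddit3 (CHOP), another factor of the response, moved the other way (-0.64 ± 0.13, adjusted p = 0.00028), as did the ER chaperone Pdia4 (-0.63 ± 0.11, adjusted p = 2.0e-05).

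Antioxidant genes, many of them targets of NRF2, rose in 16 of 28 cases and fell in 2 (median 0.53). Sod1, cytosolic superoxide dismutase, spanned 1516 to 2714 units (median 2146) at 48 h and 941 to 1210 (median 1002) at 0 h (0.98 ± 0.14, adjusted p = 7.3e-07). Thioredoxin (Txn1) rose by 0.97 ± 0.14 (adjusted p = 1.7e-06) and glutathione reductase (Gsr) by 1.15 ± 0.21 (adjusted p = 6.2e-05). In none of these 3 did the groups overlap. The counts were 16 and 2 without the libraries that stood apart as well.

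Mt1 and Mt2, metallothioneins that bind zinc and copper, rose. Of 9 measured genes of metallothioneins and zinc transport they were the 2 that rose (22.2%), while 1 fell (11.1%). Among all genes 21% were called higher and 17.1% lower. Mt1 spanned 197 to 998 units (median 359) at 48 h and 59.1 to 122 (median 108.3) at 0 h (1.88 ± 0.28, adjusted p = 2.9e-06), and Mt2 spanned 120 to 619 (median 269) at 48 h and 36.4 to 84.8 (median 56.3) at 0 h (2.26 ± 0.36, adjusted p = 5.1e-06). The fall was in the zinc importer Slc39a1 (-0.36 ± 0.10, adjusted p = 0.0044). The promoters of Mt1 and Mt2 are shown because they hold several metal response elements, the sites of the zinc sensor MTF-1. They are RefSeq windows of GRCm38.p6 on the plus strand, with TGCACNC and TGCGCNC, on either strand, in capitals. Mt1 is at chr8:94178839-94179138, with elements at -23, 2 and 20, and Mt2 at chr8:94172368-94172667, with elements at -223, -128, -50 and 4.
Mt1: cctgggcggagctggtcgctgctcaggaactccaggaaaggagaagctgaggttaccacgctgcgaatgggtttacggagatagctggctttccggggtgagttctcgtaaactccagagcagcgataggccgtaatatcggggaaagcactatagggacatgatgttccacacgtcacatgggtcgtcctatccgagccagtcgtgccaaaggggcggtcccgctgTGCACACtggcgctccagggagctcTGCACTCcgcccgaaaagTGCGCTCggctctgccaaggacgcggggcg
Mt2: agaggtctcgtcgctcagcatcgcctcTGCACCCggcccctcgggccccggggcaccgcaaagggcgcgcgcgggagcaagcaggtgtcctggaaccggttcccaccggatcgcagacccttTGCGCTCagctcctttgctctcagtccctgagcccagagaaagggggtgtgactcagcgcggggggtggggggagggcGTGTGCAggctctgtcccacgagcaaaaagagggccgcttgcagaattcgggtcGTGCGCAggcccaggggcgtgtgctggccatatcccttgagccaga
At least 1 such element stands in 41.2% of all 8091 promoters, at least 3 in 4.10% and at least 4 in 1.09%. The share with at least 1 was 39.4% among genes that rose and 42.5% among genes that fell.

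Iron, NAD and amino acid genes each held a few large changes. Tfrc, the transferrin receptor through which cells take up iron, spanned 153 to 1002 units (median 574) at 48 h and 1177 to 5217 (median 3159) at 0 h, 0.161 times the control level (-2.63 ± 0.36, adjusted p = 6.3e-07). Its partner Steap3, which reduces iron in the endosome, changed by -1.09 ± 0.17 (adjusted p = 6.1e-06), and Lcn2, lipocalin 2, a carrier of iron-binding siderophores, was at 22.0 to 194 (median 110) at 48 h and 4.07 to 20.7 (median 8.52) at 0 h (3.28 ± 0.38, adjusted p = 2.6e-08). In all 3 the groups did not overlap. Of the 12 iron genes measured 2 rose and 2 fell, 16.7% each, shares near those of all genes (21% and 17.1%). Nmrk2, the muscle kinase of nicotinamide riboside in NAD synthesis, spanned 90.2 to 228 (median 117) at 48 h and 407 to 2027 (median 743) at 0 h (-2.49 ± 0.40, adjusted p = 7.8e-06). With Nmnat1, the nuclear enzyme of the last step (-0.32 ± 0.10, adjusted p = 0.010), it was among 4 of 12 NAD genes that fell, and 2 rose. Of 17 genes of amino acid enzymes and transport 6 rose and 3 fell, with Prodh, which degrades proline, at 1.53 ± 0.16 (adjusted p = 5.5e-09), Gpt2, mitochondrial alanine aminotransferase, at 0.99 ± 0.14 (adjusted p = 5.2e-07), and Pycr1, which makes proline, at -1.45 ± 0.22 (adjusted p = 2.5e-06). The enzyme that breaks proline down and the enzyme that makes it thus changed in opposite directions.

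Clock genes rose in 6 of 18 cases and fell in 1 (median 0.47). The repressor Cry2 rose by 1.37 ± 0.18 (adjusted p = 3.4e-07). Per1, a clock gene that glucocorticoids also induce, was at 986 to 2009 (median 1507) at 48 h and 182 to 1281 (median 458) at 0 h (1.57 ± 0.26, adjusted p = 1.0e-05), with overlapping groups and a wide span among the 0 h libraries. The labels give no hour of the day for any sample, so time of day and unloading cannot be told apart for these genes.

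Most cell cycle genes were too low to be in the table, 7 of 22 being measured, of which 5 fell and 0 rose. Ccnd1, cyclin D1, spanned 16.4 to 38.5 units (median 31.3) at 48 h and 69.99 to 171 (median 144) at 0 h (-2.06 ± 0.28, adjusted p = 4.3e-07), and Mcm2, a replication helicase subunit, changed by -1.44 ± 0.18 (adjusted p = 1.4e-07). Of 18 genes of the interferon response and of antigen presentation 0 rose and 13 fell (median -0.52), but 7 fell without the libraries that stood apart and 6 when each library was scaled to the same total. Irf9, a transcription factor of the response, changed by -0.60 ± 0.15 (adjusted p = 0.0015).

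Markers of blood and immune cells gave few calls. None of 7 neutrophil and none of 9 lymphocyte markers reached the table, whose genes all reached at least 100 units in some library. Of 9 macrophage markers 1 rose, Cd163 of resident macrophages (0.55 ± 0.19, adjusted p = 0.018), and their summed signal was 1638 to 2755 (median 2336) at 48 h and 1559 to 3537 (median 2471) at 0 h. Red blood cell, Schwann cell and smooth muscle markers gave 0, 0 and 1 calls among 5 each, the last being Des, which muscle fibres also express and which lost its call in 4 of 24 alternatives (adjusted p of up to 0.062). Among endothelial markers 2 of 9 fell. Kdr, the receptor of vascular endothelial growth factor, changed by -0.95 ± 0.17 (adjusted p = 2.7e-05). Emcn, endomucin, changed by -0.44 ± 0.17 (adjusted p = 0.038, below the 0 h mean in 7 of 8). It missed the threshold in 10 of 24 alternatives, among them that without the libraries that stood apart (adjusted p = 0.082). Of 3 satellite cell markers measured 2 rose, with Cdh15, M-cadherin, at 0.52 ± 0.09 (adjusted p = 3.3e-05). The other lost its call in 10 of 24 alternatives (adjusted p of up to 0.10). Cidec was the 1 adipocyte marker of 7 that rose (0.84 ± 0.33, adjusted p = 0.038). It missed the threshold in 8 of 24 alternatives, among them that without the libraries that stood apart (adjusted p = 0.10).

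Between 24 h and 48 h far fewer genes were called, although 2698 had an unadjusted p under 0.05 in limma's model. Called were 737 genes (6.66%), 345 (3.12%) higher and 392 (3.54%) lower at 48 h than at 24 h. The 24 h libraries were shallower, at 6.42 to 11.8 M estimated reads, and their titles carry another run of library numbers than those of 0 h and 48 h, so that library set and time cannot be told apart here. The count fell to 69 when the spread was estimated from the 16 libraries compared, to 227 without replicate 6 at 48 h, to 298 without replicate 7 at 48 h, to 306 and 344 without replicates 1 and 2 at 24 h, to 380 without replicate 4 at 48 h and to 428 without replicate 4 at 24 h. Scaling each library to the same total gave 831 higher and 199 lower. Myh2 spanned 1819 to 17184 units (median 9982) at 48 h and 16167 to 47372 (median 26305) at 24 h, a change from 24 h of -1.74 ± 0.42 (adjusted p = 0.013). Mybph and Bdh1 were lower at 48 h than at 24 h, by 2.06 ± 0.38 (adjusted p = 0.0019) and 2.05 ± 0.40 (adjusted p = 0.0029) on the log2 scale. For Myh2, Mybph and Bdh1 the median was lower at each step of 0, 24 and 48 h. Fabp3, the fatty acid carrier of oxidative fibres, had median signals of 3941, 6790 and 1504 units at 0, 24 and 48 h, and the difference between 48 h and 24 h was -1.78 ± 0.28 (adjusted p = 0.00057). Cish, an inhibitor of cytokine signalling, had medians of 156, 486.5 and 41.7 at 0, 24 and 48 h (-2.56 ± 0.56, adjusted p = 0.0066). The medians of Nos1 were 1050, 1127 and 2881 units in the same order, and the difference between 48 h and 24 h was 1.38 ± 0.24 (adjusted p = 0.0015), and Igfn1, a Z-disc protein, was higher at 48 h than at 24 h by 1.37 ± 0.31 (adjusted p = 0.0087). For the ligases the difference between 48 h and 24 h did not pass, at 0.67 ± 0.42 for Fbxo32 (adjusted p = 0.33) and 0.73 ± 0.39 for Trim63 (adjusted p = 0.25).

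The change at 48 h differed between females and males in 33 of 10964 genes (0.301%), with the female change above the male in 26 (0.237%) and below it in 7 (0.0638%). At an unadjusted p under 0.05 there were 1329. The male groups hold 9 libraries at 48 h and 7 at 0 h, normalized in a table of their own, so changes are compared and levels are not. The titles number the female libraries in 1 run, 1 to 8 at 48 h and 9 to 16 at 0 h, but the male ones as 1 to 16 at 48 h and 26 to 40 at 0 h. Library number and unloading therefore cannot be told apart in either sex, and in males the runs are also separate. Odf3l2 changed by 3.58 ± 0.43 in females and by 0.93 ± 0.44 in males, a difference of 2.65 ± 0.61 (adjusted p = 0.025). The Odf3l2 difference lost its call in 7 of 36 alternatives, with 2.36 (adjusted p = 0.10) without both libraries that stood apart and an adjusted p of 0.090 with the 4 groups compared alone. Stab2, a scavenger receptor for hyaluronan, gave 1.84 ± 0.16 in females and 0.31 ± 0.17 in males (adjusted p = 6.9e-05), and Lvrn, laeverin, an aminopeptidase, 2.196 ± 0.20 and 0.81 ± 0.20 (adjusted p = 0.0099). For Inmt the changes were 2.42 ± 0.19 in females and 1.17 ± 0.19 in males (adjusted p = 0.015), and the difference of 1.25 became 1.14 (adjusted p = 0.070) without both libraries that stood apart. In all 4 genes both sexes changed upward in the estimate, and more so in females.

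Among genes with the lower female change, Nrep gave -2.91 ± 0.23 in females and -1.39 ± 0.24 in males, a difference of -1.52 ± 0.33 (adjusted p = 0.015), whose adjusted p was 0.082 with the 4 groups compared alone. Rhobtb1, an adaptor of a cullin ligase, gave -1.18 ± 0.14 and -0.13 ± 0.14 (adjusted p = 0.0052), and Dmpk, the kinase whose repeat expansion causes myotonic dystrophy, -0.98 ± 0.12 and -0.24 ± 0.12 (adjusted p = 0.025). The Dmpk difference lost its call in 5 of 36 alternatives, with an adjusted p of up to 0.077, and that of Rhobtb1 in 0. In male libraries Rhobtb1 spanned 551 to 1156 units (median 780) at 48 h and 670 to 1097 (median 886) at 0 h, whereas in females it spanned 256 to 502 (median 345) at 48 h and 551 to 1009 (median 783) at 0 h without overlap. Hsph1, a large chaperone of the HSP110 family, had estimates of opposite sign, 0.26 ± 0.15 in females and -0.62 ± 0.15 in males (difference 0.88 ± 0.21, adjusted p = 0.038), although the female change alone was not called (0.26 ± 0.17, adjusted p = 0.25 in the model of females). The Hsph1 difference lost its call in 22 of 36 alternatives, with an adjusted p of up to 0.13. Of the main wasting genes, Fbxo32 and Trim63 gave differences of 0.85 ± 0.53 (adjusted p = 0.52) and 0.92 ± 0.49 (adjusted p = 0.44), and Fkbp5 of 1.39 ± 0.35 (adjusted p = 0.052); these misses do not show that the sexes act alike. The count of 33 fell to 16 without both libraries that stood apart. It was 17 without replicate 7, 20 without replicate 6, and 21 without replicate 4 or 5 of the female 48 h group, 20 without replicate 1 or 7 of the female 0 h group, and 94, 58, 50 and 50 without replicates 1 and 2 of the female 48 h group, replicate 3 of the female 0 h group and replicate 2 of the male 48 h group.

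**Figure D5:**
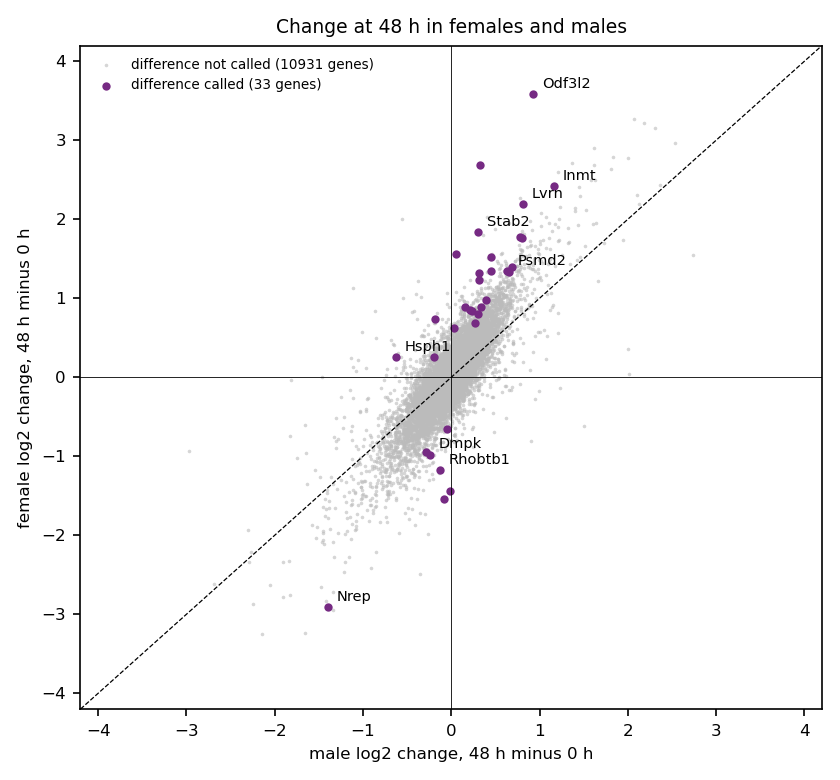
Each point is 1 of 10964 genes, with the log2 change at 48 h in females on the y axis and in males on the x axis, and a dashed line where the 2 are equal; the 33 genes with a called difference are purple. Odf3l2 (3.58 in females and 0.93 in males) lies farthest above the line among the named genes, and Nrep (-2.91 and -1.39) lies below it.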

How the data were processed

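RNA from gastrocnemius was sequenced in 80 libraries, 39 female and 41 male. The deposited values are signal, estimated reads per gene divided by 1 factor for each library; the submitters' processing notes list STAR 2.7.8a, Partek and DESeq2, and mm39 as well as mm10, with no role for any. Whole reads could not be recovered from the values, so no count test was run. The authors' deposited table also gives a p-value with its false discovery rate and a ratio (fold) for each comparison.

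Signal was tested as log2(signal + 1) with limma 3.58.1 in R 4.3.3, with trend and robust moderation, in 1 model of all 39 female libraries in 5 groups. P-values were adjusted by Benjamini-Hochberg over 11068 genes, with calls at an adjusted p under 0.05. The same model gave 48 h against 24 h, and a joint model of 80 libraries over 10964 genes in both tables gave the sex difference. No further filter on low values was applied. Every gene of the deposited values reached at least 100.005 units in some female library. Some genes may therefore be present only through a group where they are high. Lcn2 and Pnmt reached 100 units at 48 h and not at 0 h, and Foxo6, Fbxl22 and Ccnd1 at 0 h and not at 48 h. Depth was estimated from the steps between low values. Where a symbol occurs on several rows the one with the higher mean is given. The procedure was tested on simulated data. For the gene test each gene had independent normal noise of equal spread in all groups. Libraries that stand apart and groups of unequal spread were not simulated.

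The 20 genes with the largest called changes (mean signal of at least 100, no provisional symbols), the 5 smallest p-values in each direction, up to 5 called members of each list and a set of wasting genes were eligible to be named. Some of these are not reported here. The members and lists were chosen with earlier results of these data known. Promoters were matched by symbol to RefSeq windows of GRCm38.p6 (8091 of 11052 symbols). Replicate numbers follow the order of the records and pair no samples. The alternatives were other scalings, pseudocount 10, a filter on the mean, other sets of libraries, library weights, plain moderation and leaving out each library; the counts of each list under other scalings, and the alternatives for the sex difference of Hsph1, Prodh, Psmd2 and Rab12, were added after seeing the data.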

Additional observations from a re-analysis of the deposited data

Results flagged for a closer look

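In groups of 8 libraries, 1 library lay far from the other 7 in 25 of 360 group and measure pairs, by Dixon's gap test. Its cut-off flags about 1 in 20 groups when values are independent and normally spread. Signal was tested without logs and the genes share the same libraries, so the 25 cannot be set against that rate. At 48 h replicate 7 was the far library in 8 of the 25. It was the highest for Trim63 (79426 units), Mstn (3566), Il6ra (1457), Mt1 (998), Smad4 (1100) and Eif4g3 (6556), and the lowest for Cryab (1902) and Igfbp5 (1112). Replicate 1 at 48 h was the highest for Mdga1 (102.4), replicate 4 for Cish (146) and replicate 8 for Depp1 (1485). Replicate 5 at 48 h was the lowest for Xist (656).

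At 0 h replicate 6 was the highest for Tsc22d3 (3240), Glul (4435), Ddit4 (399) and Arrdc2 (1509), and the lowest for Runx1 (20.7). Replicate 7 at 0 h had the lowest median correlation with its group (0.916) and was the highest for Sdhc (4906), Dlst (4447), Mdh1 (14752), Hspb6 (11837) and Slc39a1 (842). Replicate 2 at 0 h was the highest for Mafa (2102) and the lowest for Perm1 (2268).

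The 48 h change differed between females and males, by the test of the difference itself, in 11 genes named here. The female minus male difference was 2.65 for Odf3l2, 1.53 for Stab2, 1.38 for Lvrn, 1.25 for Inmt, 1.08 for Prodh, 0.88 for Hsph1, 0.68 for Psmd2 and 0.58 for Rab12. It was -1.52 for Nrep, -1.05 for Rhobtb1 and -0.74 for Dmpk. Over 36 alternatives the call was lost in 22 for Hsph1, 7 for Odf3l2, 5 for Dmpk and 1 each for Inmt, Nrep and Psmd2, and in 0 for Stab2, Lvrn, Prodh, Rab12 and Rhobtb1. The male 48 h and 0 h libraries carry different runs of library numbers, and the female ones 1 run in which all 48 h libraries come before those at 0 h. Library number and unloading therefore cannot be told apart in either sex.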

How the results depend on the processing

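The count of genes called between 48 h and 0 h, 4215, stayed within 1.5 times under each alternative run, at 3745 to 5399, and at 3517 to 4301 with a library left out. The count between 48 h and 24 h was 69 with the 16 libraries compared alone, and 227 to 1094 with a library left out; scaling to the library total gave 1030. The sex difference gave 16 genes without both libraries that stood apart and 17 to 94 with a library left out. Scaling to the library total moved the median change of all genes from 0.06 to 0.10 between 48 h and 0 h. Between 48 h and 0 h, quantile normalization gave 1994 higher and 2173 lower, and total scaling 2465 higher and 1538 lower. Chrna1, not called in any of these, changed sign to -0.023 under quantile normalization and to -0.0082 without both libraries that stood apart, and ran from -0.041 to 0.11 with a library left out; it was below 0 without replicate 2, 5 or 8 at 48 h or replicate 5 or 8 at 0 h. The cause was not tested. No paired analysis was possible because replicate numbers follow the order of the records and pair no samples. Depth of 6.42 to 11.8 M reads limits low genes at 24 h.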
